A study of Komagataella phaffii with 9 samples.

Results

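The genes described here are the neighbours of *CRA1* on chromosome 1 of the methylotrophic yeast *Komagataella phaffii*. They were chosen by identifier alone, which is PP7435_Chr1 followed by a number, as every sequence whose number lies within 40 of the number of *CRA1*, 1522, that is from 1482 to 1562 without 1522 itself. Of the 80 numbers in this window 73 have a sequence in the tables, 37 below and 36 above *CRA1*, out of 5344 sequences in all. Numbers 1497, 1498, 1499, 1526, 1529, 1536 and 1540 have none. Distance is given in identifier numbers. It is not a distance in bases, because the tables hold no coordinates and no genome of this strain was used.

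The study asked how a Gal4-like transcription factor, Cra1, acts on central carbon metabolism, and measured poly(A)-enriched RNA in 3 strains that all derive from CBS7435 and all carry an eGFP reporter gene under the glyceraldehyde-3-phosphate dehydrogenase promoter. The control strain has the reporter only, the *CRA1* overexpression strain carries an added *CRA1* expression construct, and in the *Δcra1* strain the gene was removed with a split marker cassette. Each strain was 1 representative transformant, grown in 3 shake flasks with 20 mL of M2 medium and 5 g/L glucose after a preculture with the antibiotic Zeocin, and sampled in exponential growth. The 3 libraries of a strain are therefore separate cultures of 1 transformant, and the spread between transformants was not measured.

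Zinc cluster regulators of the Gal4 type bind promoters and act on genes that can lie anywhere in the genome, so the place of a target has no fixed relation to that of the regulator gene. A cassette that replaces a gene can in addition alter transcription of the genes beside it, through its own promoter and terminator, a phenomenon known in yeast deletion collections as the neighbouring gene effect. The comparisons below therefore ask whether genes with numbers near that of *CRA1* differed between strains more than other genes did, and whether the difference changed with distance.

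Total estimated counts per library were 106345 to 223824, with the control libraries the shallowest at 106345 to 108537, and a count of 0 allowed a share of up to 0.00134% to 0.00282% of a library. *CRA1* followed the labels. Its counts were 11, 11 and 11 in control, 810, 95 and 316 with overexpression and 0, 0 and 0 in *Δcra1*. It was higher in the overexpression strain by 4.75 on the log2 scale (SE 0.65, adjusted p = 0.0031, edgeR's quasi-likelihood test, Benjamini-Hochberg adjusted). Against a floor of 3 counts per library it was at least 7.67-fold lower in *Δcra1* than in control. The 3 overexpression libraries thus differed widely in *CRA1* itself, and replicate 1 was the highest. Per gene, the chi-square between libraries of a strain was 2.92 to 8.47 in the overexpression strain, against 1.31 to 1.40 in control and 1.56 to 2.27 in *Δcra1*.

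The neighbours were close to the other genes in level and length. Their median TPM, which is counts per length scaled to a constant sum, was 44.1 as a mean over the 9 libraries, beside 35.7 for the other sequences, and their median length was 1191 bases beside 1170. Many were counted only a few times, since 37 of the 73 had a mean of under 10 counts per library, 27 were at 0 in at least 1 library and 14 had a mean of at least 50. As a result 32 members were tested in no comparison and 25 in all 3. The 5 members with the highest mean TPM were 1535 with 1221, *RDH54* with 1140, 1518 with 1025, 1537 with 744 and 1495 with 740.

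As shares of a library, all 73 members together took 1.79% ± 0.034 of the counts in control, 1.74% ± 0.105 in the overexpression strain and 2.01% ± 0.077 in *Δcra1* (SD, n = 3 each). *RDH54* alone made up 35.5%, 41.5% and 37.0% of the members' counts in the control libraries and 15.4%, 15.9% and 12.8% in the *Δcra1* libraries. Without *RDH54* the share was 1.11% ± 0.039 in control, 1.24% ± 0.248 in the overexpression strain and 1.72% ± 0.086 in *Δcra1*. Of the members' 4321, 3727 and 4575 counts in *Δcra1*, locus 1547 held 747, 577 and 755 and *VTS1* 292, 189 and 218. Of their 1903, 1975 and 1914 counts in control, 1547 held 21, 23 and 23 and *VTS1* 2, 0 and 2. The share without these 2 genes was not computed. The *Δcra1* libraries lay above all control libraries in both shares, while the overexpression libraries overlapped control in both. With 3 libraries against 3, an exact permutation test cannot give a p below 0.1, so only the overlap is stated. The amount of RNA per cell was not measured.

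**Figure D1:**
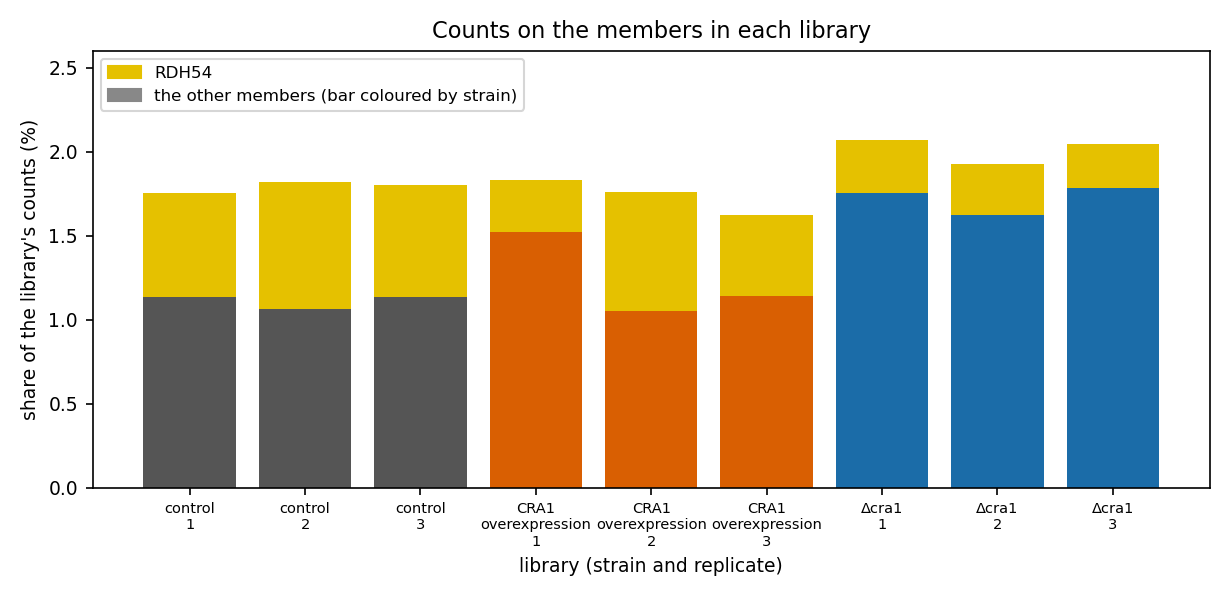
The share of each library's estimated counts that fell on the 73 members, in percent, with *RDH54* in yellow on top of the other members, for 3 libraries per strain. The *Δcra1* bars without *RDH54* average 1.72% against 1.11% in control, and the *RDH54* part is smaller in *Δcra1*.

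The gene with the next number after *CRA1*, 1523, is *RDH54*, named for a *Saccharomyces cerevisiae* DNA-dependent ATPase of recombinational repair. It had 675, 819 and 709 counts in control, 667, 811 and 674 with overexpression and 667, 592 and 585 in *Δcra1*. The counts look alike, but the *Δcra1* libraries held about as many *RDH54* counts out of larger totals. Scaled to library size with TMM factors (CPM), the levels were 6862 ± 793, 5304 ± 1887 and 2744 ± 315 (SD, n = 3). *RDH54* fell by 1.31 on the log2 scale in *Δcra1* against control (SE 0.10, adjusted p = 2.4e-12, edgeR's quasi-likelihood test, Benjamini-Hochberg adjusted), and the libraries of these strains did not overlap. In overexpression against control the difference was -0.30 (95% interval -0.79 to 0.19, edgeR adjusted p = 0.36) and the libraries overlapped. In overexpression against *Δcra1* it was 0.91 (adjusted p = 0.073, same test), and 1.18 with an adjusted p of 0.00053 when overexpression replicate 1 was left out. Over the 6 fits with 1 library left out it ran from 0.51 to 1.18, with an edgeR adjusted p of up to 0.28.

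Of the 9 members within 5 numbers of *CRA1*, only 1518, *RDH54* and 1525 had enough counts to be tested against control, and 6 had a mean of under 10 counts. Locus 1518 lies 4 numbers below *CRA1* and had 19, 17 and 19 counts in control, 74, 13 and 17 with overexpression and 26, 17 and 47 in *Δcra1*. One overexpression library stood above the others, and the strains overlapped. Its log2 difference was 0.49 in overexpression against control (95% interval -0.68 to 1.66) and -0.35 in *Δcra1* against control (-1.01 to 0.30), and the first turned to -0.43 without overexpression replicate 1. Locus 1525, 3 numbers above, had 23, 14 and 21 counts in control, 33, 18 and 30 with overexpression and 50, 28 and 59 in *Δcra1*. Its log2 differences against control were 0.16 (-0.54 to 0.85) and 0.18 (-0.40 to 0.76), and without control replicate 2 they turned to -0.14 and -0.066. For both loci the intervals against control included 0, and neither was called.

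The remaining 6 nearest members were too low to be tested against control. The gene just below *CRA1*, 1521, had 2, 2 and 4 counts in control, 5, 5 and 1 with overexpression and 7, 6 and 6 in *Δcra1*. Locus 1520 had 5, 4 and 2, then 20, 0 and 9, then 8, 10 and 12 counts in the same order. It was tested only between the modified strains, where it differed by 0.38 (95% interval -1.05 to 1.81) and by -0.32 without overexpression replicate 1. The 4 others, at 5 and 3 numbers below and 2 and 5 numbers above *CRA1*, had between 0 and 14 counts in every library. Among them 1524, 2 numbers above *CRA1*, had 5, 5 and 8 counts in control, 2, 3 and 6 with overexpression and 13, 4 and 1 in *Δcra1*. Its scaled overexpression libraries lay below control without overlap, at 27.3 ± 16.4 against 56.1 ± 16.9 CPM (SD, n = 3), and its *Δcra1* libraries overlapped control. The libraries of the other 5 overlapped in every comparison.

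**Figure D2:**
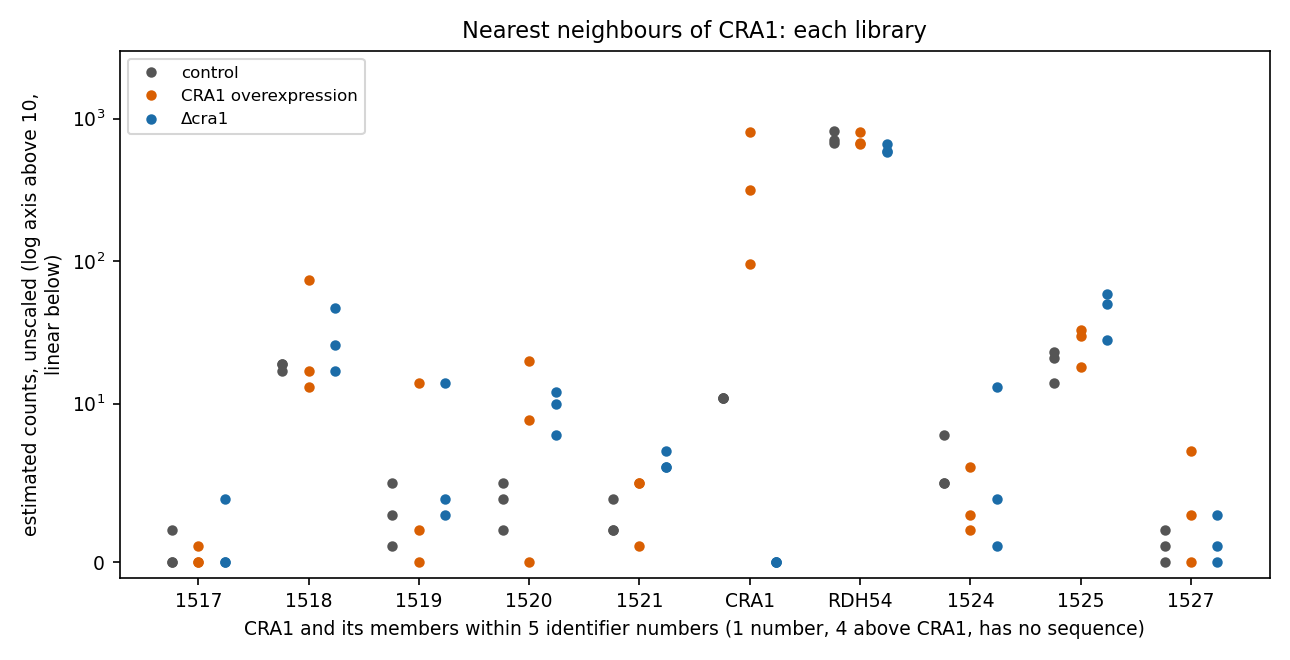
Unscaled estimated counts of *CRA1* and of the members within 5 identifier numbers, 1 point per library coloured by strain, on an axis that is linear below 10 and logarithmic above. *CRA1* runs from 0 in every *Δcra1* library to 810 in overexpression replicate 1, while apart from *RDH54* no neighbour exceeds 74 counts.

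In *Δcra1* against control 33 members were tested, of which 8 were called higher and 2 lower, at an adjusted p under 0.05 and a log2 difference of at least 1. Over all 2392 sequences tested 13.1% were called higher and 8.53% lower. Together that is 30.3% of the members tested beside 21.6% of all. The libraries of the strains did not overlap for 17 of the 33, beside 48.2% of all. The median log2 difference of the members tested was 0.50 and its median size 0.76, beside 0.0063 and 0.50 over all sequences tested. The members' median was 0.20 without *Δcra1* replicate 3, 0.24 without control replicate 1 and 0.33 without control replicate 2. With library totals in place of TMM factors the members' calls were 10 higher and 1 lower, where 16.3% of all sequences tested were called higher and 6.27% lower.

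These figures depend on which members entered the test. A low gene can pass the count minimum only through the strain where it is high. This favours genes that differ, and the counts over tested members are a description only. When each strain on its own had to meet the minimum, an alternative added after the values were seen, 19 members remained, with 2 called higher and 1 lower. That was 15.8% of them beside 12.1% of all 1604 sequences that met it. Their median difference was then -0.10 and the median size 0.56, beside 0.38 over all. The 3 called were *RDH54*, 1547 and 1550.

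By distance, the calls lay mostly far from *CRA1*. Within 5 numbers 1 of 3 tested members was called, *RDH54*. From 6 to 10 numbers it was 1 of 6, locus 1513, and from 11 to 20 none of 10. Of those 10, 5 had an edgeR adjusted p under 0.05 and 8 an unadjusted one, beside 936 and 1134 of all 2392 sequences tested. From 21 to 40 numbers 7 of 14 were called higher and 1 lower. The median size of the difference was 0.35, 0.77, 0.59 and 1.13 in these bands, in order of distance. Of the 7 higher calls in the outer band 6 lay between 21 and 40 numbers above *CRA1*. There 9 of 10 tested members had a difference over 0, beside 50.3% of all sequences tested. Of these members only 1545, 1547, 1550 and 1562 met the count minimum in each strain, differing by -0.065, 3.89, 1.13 and 0.57. The others could pass the minimum through the strain where they were high, so that the count of signs is a description only. Of all 37 sequences between 21 and 40 numbers away on either side, 5 met the count minimum in each strain, with 2 called higher and a median size of 0.67. Within 20 numbers 14 of 36 met it, with 1 called lower and a median size of 0.52.

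**Figure D3:**
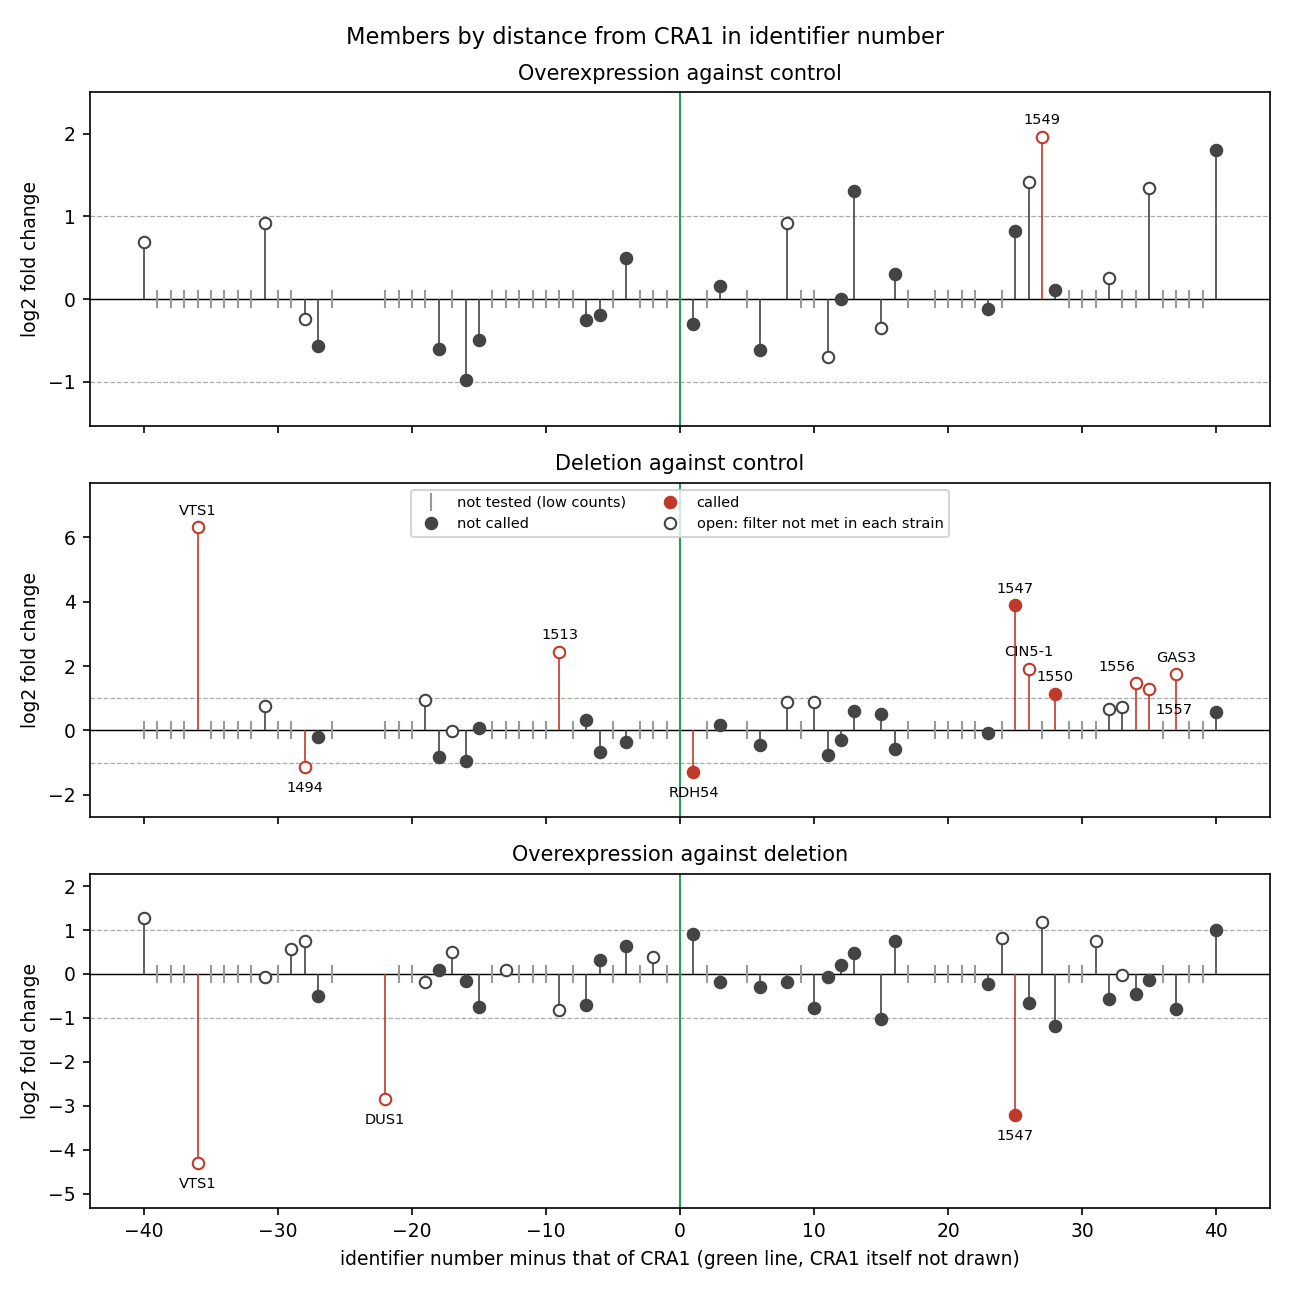
Log2 difference of each member by its identifier number minus that of *CRA1*, in the 3 comparisons, with called members in red, members too low to test as grey ticks, and open circles where the count minimum was not met in each strain. In *Δcra1* against control the called members are *RDH54* at 1, locus 1513 at -9 and 8 members more than 20 numbers away, with *VTS1* the highest at 6.31.

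The largest difference belonged to *VTS1*, identifier number 1486 and 36 below *CRA1*, named for a Smaug-family RNA-binding protein that promotes deadenylation of messenger RNAs in *S. cerevisiae*. It had 2, 0 and 2 counts in control, 10, 3 and 11 with overexpression and 292, 189 and 218 in *Δcra1*. Every *Δcra1* library lay far above every other library. The CPM were 12.4 ± 10.7, 54.0 ± 26.5 and 1037 ± 240 (SD, n = 3). *VTS1* rose by 6.31 on the log2 scale in *Δcra1* against control (SE 0.35, adjusted p = 1.4e-16, edgeR's quasi-likelihood test, Benjamini-Hochberg adjusted). The ratio of the summed counts was 83.2, with a 95% exact interval of 32.3 to 306 for counting error only, since control held 4 counts in all. In overexpression against *Δcra1* the difference was -4.30 (SE 0.36, edgeR adjusted p = 2.3e-06). In overexpression against control *VTS1* was too low to be tested in the main fit, although the libraries did not overlap. It was called higher there in 1 fit over 9 libraries, where the *Δcra1* libraries also count toward the minimum.

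Locus 1547, 25 numbers above *CRA1*, is described as similar to a putative ABC transporter of *S. cerevisiae*, a membrane pump driven by ATP. It had 21, 23 and 23 counts in control, 54, 43 and 50 with overexpression and 747, 577 and 755 in *Δcra1*, and no library of a strain overlapped another strain. The CPM were 209 ± 14.7, 350 ± 49.3 and 3072 ± 299 (SD, n = 3). It rose by 3.89 in *Δcra1* against control (SE 0.15, adjusted p = 3.8e-21, edgeR's quasi-likelihood test, Benjamini-Hochberg adjusted). In overexpression against control it was 0.83 higher (SE 0.22, adjusted p = 0.049, same test), short of the fold required for a call. Over the 6 fits with 1 library left out this difference ran from 0.69 to 0.91, with an edgeR adjusted p of up to 0.21. With DESeq2 it was 0.59 (adjusted p = 0.35). The scaled libraries of both modified strains lay above control.

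The next number, 1548, is *CIN5-1*, named for a bZIP transcription factor of the yAP-1 family, whose members serve in stress responses in *S. cerevisiae*. It had 13, 4 and 10 counts in control, 46, 18 and 29 with overexpression and 83, 57 and 73 in *Δcra1*. Both modified strains lay above control without overlap. It rose by 1.92 in *Δcra1* (SE 0.31, adjusted p = 6.6e-06, edgeR's quasi-likelihood test, Benjamini-Hochberg adjusted). In overexpression it was 1.42 higher (SE 0.43, adjusted p = 0.066, same test), and 1.52 with an adjusted p of 0.021 without overexpression replicate 2. Over the 6 fits with 1 library left out this difference ran from 0.95 to 1.66, with an edgeR adjusted p of up to 0.22. The calls of *VTS1*, 1547, *CIN5-1* and *RDH54* in *Δcra1* against control held in every alternative that tested them. *VTS1* and *CIN5-1* did not meet the count minimum in every control library. The alternative with the minimum in each strain therefore did not test these 2 genes.

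Locus 1513, 9 numbers below *CRA1*, is described as a hypothetical protein that is not conserved. It had 2, 3 and 1 counts in control, 26, 3 and 1 with overexpression and 17, 25 and 28 in *Δcra1*, and it rose by 2.44 in *Δcra1* against control (SE 0.52, adjusted p = 0.00031, edgeR's quasi-likelihood test, Benjamini-Hochberg adjusted). The *Δcra1* libraries lay above all control libraries, and overexpression replicate 1 lay above them. Left out, that library moved the difference between overexpression and *Δcra1* from -0.82 (adjusted p = 0.41) to -2.61 (adjusted p = 0.011, same test). Over the 6 fits with 1 library left out the difference ran from -2.61 to -0.37, with an edgeR adjusted p of up to 0.74.

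Far above *CRA1*, *GAS3*, number 1559, is named for a possibly inactive member of the 1,3-beta-glucanosyltransferase family of cell wall enzymes. It had 3, 6 and 6 counts in control, 28, 6 and 10 with overexpression and 14, 42 and 50 in *Δcra1*, with no overlap between *Δcra1* and control. It rose by 1.75 in *Δcra1* (SE 0.46, adjusted p = 0.0029, edgeR's quasi-likelihood test, Benjamini-Hochberg adjusted). Like 1513 and 1556 it met the count minimum only through *Δcra1*, and was too low to be tested without *Δcra1* replicate 2 or 3. Its call was lost with limma, and that of 1513 in 1 fit over 9 libraries.

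Loci 1550, 1556 and 1557, whose products the sources used here do not name, were called higher in *Δcra1*, but DESeq2 called none of them, with adjusted p of 0.21, 0.081 and 0.052. The calls were lost in 8 of 19, 7 of 15 and 5 of 17 alternatives that tested them. Locus 1550 had 13, 22 and 21 counts in control, 29, 22 and 24 with overexpression and 146, 59 and 50 in *Δcra1*, and its CPM overlapped between *Δcra1* and control. Its difference was 1.13 (SE 0.32, adjusted p = 0.0058, edgeR), and the call was lost without *Δcra1* replicate 1 (0.52), control replicate 1 (0.86) or control replicate 3 (1.17, adjusted p = 0.051). Replicate 1 of *Δcra1* held the highest count. Locus 1556 had 4, 5 and 6 counts in control, 25, 11 and 8 with overexpression and 15, 28 and 44 in *Δcra1*, a difference of 1.46 (edgeR adjusted p = 0.009). It was lost without control replicate 1 (1.25, adjusted p = 0.066, edgeR) or control replicate 2 (1.40, adjusted p = 0.055). Locus 1557 had 11, 7 and 5, then 41, 12 and 23, then 28, 43 and 47 counts in the same order, a difference of 1.30 (edgeR adjusted p = 0.0048) that was lost without control replicate 3 (1.01, adjusted p = 0.062). The *Δcra1* libraries of 1556 and 1557 did not overlap control, and both loci met the count minimum in this comparison only through *Δcra1*.

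Besides *RDH54*, locus 1494, 28 numbers below *CRA1*, was called lower in *Δcra1*. It had 8, 13 and 10 counts in control, 10, 12 and 10 with overexpression and 7, 12 and 10 in *Δcra1*. As with *RDH54* the counts were alike while the totals were not, and the scaled levels did not overlap. Locus 1494 met the count minimum only through control. The difference was -1.13 (SE 0.41, adjusted p = 0.026, edgeR's quasi-likelihood test, Benjamini-Hochberg adjusted), and it was no longer called in 12 of 17 alternatives, among them those without control replicate 2 (-0.99), control replicate 3 (-1.21), *Δcra1* replicate 1 (-0.93) or *Δcra1* replicate 3 (-1.06). Locus 1506, similar to an NADP(H) oxidoreductase of *S. cerevisiae*, lay just short of the fold required. It had 81, 78 and 59 counts in control, 51, 43 and 42 with overexpression and 80, 65 and 87 in *Δcra1*. Its scaled level was below control without overlap in both modified strains, by -0.98 in overexpression (edgeR adjusted p = 0.018) and -0.96 in *Δcra1* (edgeR adjusted p = 2.7e-05). Without control replicate 3 these became -1.15 and -1.15, and without overexpression replicate 2 the first was -1.15, each past the fold. Over the 6 fits with 1 library left out the first ran from -1.15 to -0.91, with an edgeR adjusted p of up to 0.12. The second ran from -1.15 to -0.86, with an edgeR adjusted p of up to 0.001. DESeq2 called 1506 lower in both strains, by -1.22 in overexpression (adjusted p = 0.0078) and -1.04 in *Δcra1* (adjusted p = 4.1e-05).

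Fewer neighbours were called in overexpression against control, and the difference between these counts was not tested. Against the same control libraries, so that both comparisons share their reference, 27 members were tested, 1 was called higher and none lower. Over all 1986 sequences tested 7.15% were called higher and 0.806% lower. The unadjusted edgeR p was under 0.05 for 9 of the 27 and the adjusted p for 3, beside 633 and 198 of all 1986. The libraries did not overlap for 10, beside 36.9% of all, 5 in each direction. The median difference of the members tested was 0.11 and the median size 0.57, beside 0.018 and 0.41 over all and 0.023 and 0.44 over the other chromosome 1 sequences. Where each strain had to meet the count minimum, 17 members remained and none was called by edgeR, beside 4.06% of all.

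The count rested on single libraries. It was 0 without control replicate 1, control replicate 2 or overexpression replicate 3, where 2.7%, 1.92% and 4.07% of all sequences tested were called. Without overexpression replicate 2, the library with the least *CRA1*, it was 8. That was 28.6% of the members tested, beside 25.3% of all. The one member called, locus 1549 at 27 above *CRA1*, had 3, 6 and 4 counts in control, 24, 19 and 21 with overexpression and 10, 20 and 12 in *Δcra1*. The overexpression libraries lay above all others, and the locus met the count minimum only through them. It rose by 1.97 in overexpression against control (SE 0.36, adjusted p = 0.014, edgeR's quasi-likelihood test, Benjamini-Hochberg adjusted). The call was lost without control replicate 1 (1.67), control replicate 2 (2.17), control replicate 3 (1.87) or overexpression replicate 3 (1.94). It was also lost with DESeq2, the study's own tool (1.75, adjusted p = 0.079), and with limma on log2(TPM + 1) (1.76, adjusted p = 0.28) and log2(TPM + 0.1) (1.96, adjusted p = 0.34). With DESeq2 the single member called in this comparison was instead 1506, which was lower. Against *Δcra1* locus 1549 was 1.19 higher (edgeR adjusted p = 0.075).

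By distance, none of the 15 members tested within 20 numbers of *CRA1* was called in overexpression against control, and 1 of the 12 beyond. The median size of the difference was 0.49 within 20 numbers and 0.76 beyond. Where each strain had to meet the count minimum these became 0.40 over 12 members and 0.49 over 5, and none was called by edgeR. Among the 8 tested members from 21 to 40 numbers above *CRA1*, 7 had a difference over 0, with a median of 1.09. Over all sequences tested 51.0% had a difference over 0. Of these members again only 1545, 1547, 1550 and 1562 met the count minimum in each strain, differing by -0.12, 0.83, 0.11 and 1.80. Both comparisons share the control libraries, so their signs are not independent. The order of the 3 overexpression libraries in *CRA1* itself, replicate 1 above 3 above 2, was followed by 7 of the 27 members, or 25.9%, beside 23.1% of all sequences tested.

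The largest difference among members tested and not called was that of 1562, the last of the window, with 17, 14 and 23 counts in control, 186, 17 and 56 with overexpression and 33, 69 and 64 in *Δcra1*. The overexpression libraries spread from 17 to 186 counts and overlapped control. The difference was 1.80 (95% interval 0.36 to 3.25, edgeR adjusted p = 0.096), and it was 2.17 with an adjusted p of 0.0021 without overexpression replicate 2 and 0.84 without replicate 1. Locus 1535, the member with the highest TPM, had a like pattern, with 206, 152 and 174 counts in control, 1236, 174 and 398 with overexpression and 446, 542 and 684 in *Δcra1*. It differed by 1.31 in overexpression (edgeR adjusted p = 0.11), by 1.62 with an adjusted p of 0.0021 without overexpression replicate 2 and by 0.52 without replicate 1. In *Δcra1* it was above all control libraries by 0.60 (SE 0.12, edgeR adjusted p = 0.00023), less than the fold required. In 1 fit over 9 libraries 1562, 1535 and *CIN5-1* were called higher in overexpression, by 1.66, 1.16 and 1.30. That fit also called *VTS1* and 1549 higher and 1506 lower, and it called 13.7% of all sequences tested. With a replicate block 1562, 1535 and *CIN5-1* were called higher too, where 15.5% of all sequences tested were called.

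Of the other members high in TPM, 1495 and 1537 were called in no comparison. Locus 1495 had 126, 108 and 114 counts in control, 114, 93 and 83 with overexpression and 227, 178 and 223 in *Δcra1*, with log2 differences of -0.57 in overexpression (95% interval -0.92 to -0.22, edgeR adjusted p = 0.052) and -0.20 in *Δcra1* (-0.46 to 0.05). Its overexpression libraries lay below control and its *Δcra1* libraries overlapped control. Locus 1537, with low similarity to an E2 ubiquitin-conjugating enzyme, had 18, 27 and 24 counts in control, 34, 22 and 12 with overexpression and 79, 52 and 73 in *Δcra1*. Its differences against control were -0.35 (-1.15 to 0.44) and 0.50 (0.01 to 1.00, edgeR adjusted p = 0.096), and both modified strains overlapped control.

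**Figure D4:**
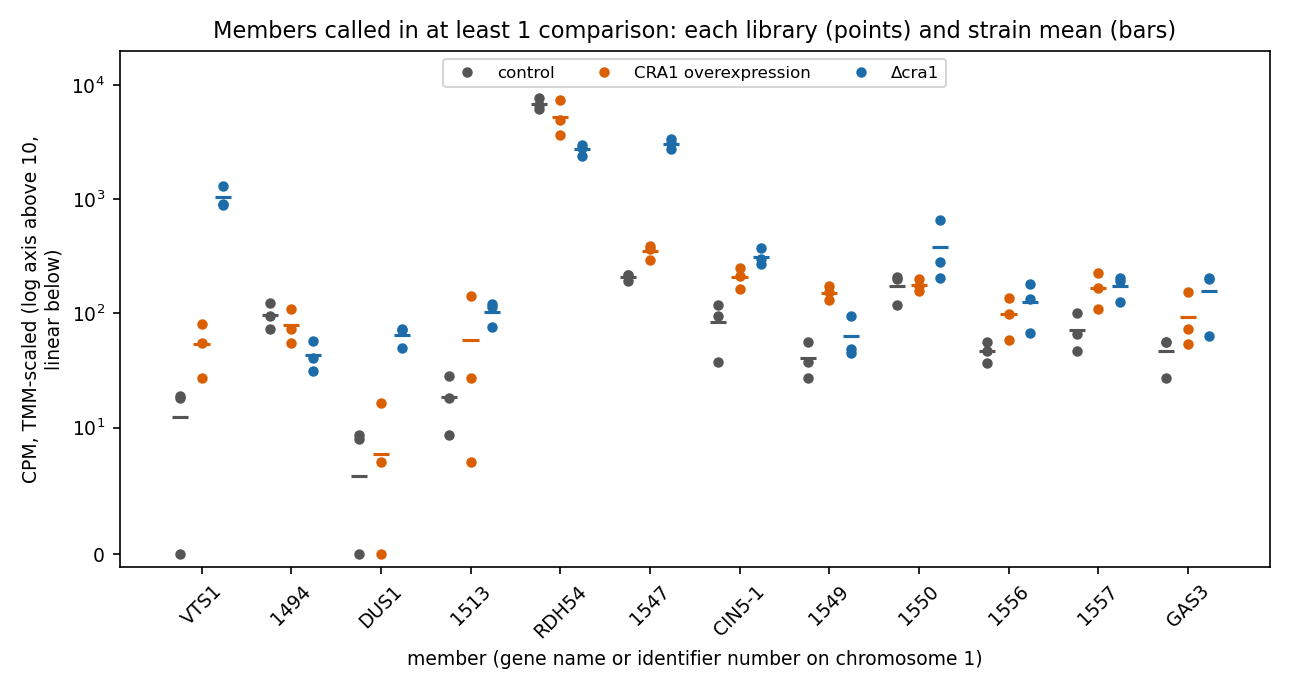
TMM-scaled CPM of the 12 members called in at least 1 comparison, with 1 point per library, a bar at each strain's mean (n = 3), and an axis that is linear below 10 and logarithmic above. *VTS1* and 1547 stand apart in *Δcra1*, at 1037 and 3072 on average, and *RDH54* is lowest there at 2744.

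Between the modified strains, 41 members were tested, and none was called higher and 3 lower in overexpression than in *Δcra1*. Over all 3071 sequences tested 9.8% were called higher and 5.67% lower. The libraries did not overlap for 15 of the 41, beside 36% of all. The median difference was -0.14 and the median size 0.57, beside 0.078 and 0.53. Of the 26 members that met the count minimum in each strain 1 was called, locus 1547, or 3.85% beside 13.7% of all. The 3 called all lay more than 20 numbers from *CRA1*. Without overexpression replicate 1 the count was 7 and without overexpression replicate 2 it was 6. These were 17.1% and 14.0% of the members tested, beside 15.9% and 22.5% of all sequences tested.

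Of these 3, *VTS1* is given above and 1547 differed by -3.20 in overexpression against *Δcra1* (SE 0.29, adjusted p = 4e-06, edgeR's quasi-likelihood test, Benjamini-Hochberg adjusted). The third was *DUS1*, number 1500 and 22 below *CRA1*, named for a dihydrouridine synthase that modifies transfer RNA. It had 1, 1 and 0 counts in control, 3, 0 and 1 with overexpression and 11, 15 and 18 in *Δcra1*, so that all *Δcra1* libraries lay above all others. The difference was -2.85 (SE 0.69, adjusted p = 0.012, same test). The call was lost without overexpression replicate 3 (-2.79), *Δcra1* replicate 2 (-2.83) or *Δcra1* replicate 3 (-2.78). Limma did not call it. In this comparison it met the count minimum only through *Δcra1*. Against control *DUS1* was too low for the edgeR test, DESeq2 called it higher in *Δcra1*, and its summed counts in *Δcra1* were 10.5 times those of control after scaling to library size, with a 95% exact interval of 2.73 to 89.2 for counting error only. Locus 1482, the first of the window, had the largest difference among those tested and not called, at 1.27 (95% interval 0.32 to 2.22, edgeR adjusted p = 0.066), with 6, 10 and 8 counts in control, 23, 15 and 11 with overexpression and 11, 7 and 12 in *Δcra1*. Its overexpression libraries lay above *Δcra1* and overlapped control. Locus 1537 differed by -1.02 there (edgeR adjusted p = 0.054), and was past the threshold without overexpression replicate 1 (-1.10) or replicate 2 (-1.28). Over the 6 fits with 1 library left out it ran from -1.28 to -0.76, with an edgeR adjusted p of up to 0.25.

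Across the window, 12 members were called by edgeR in at least 1 comparison and none in both comparisons against control. Other settings gave members called in both, among them *VTS1* and *CIN5-1*, higher in both in 1 fit over 9 libraries. Locus 1506 was lower in both with DESeq2 and, with edgeR, without the count minimum or without control replicate 3. Of the 12, *VTS1* and 1547 were called both in *Δcra1* against control and in overexpression against *Δcra1*, comparisons that share the *Δcra1* libraries. The strand setting of the counting is not given in the sources used here, so that reads of overlapping or antisense genes among these neighbours cannot be told apart.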

How the data were processed

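Poly(A)-enriched RNA of 9 cultures was sequenced on Illumina HiSeq. The authors trimmed the reads with Trim Galore 0.4.2 and assigned them with kallisto to transcripts of the CBS7435 annotation. The version is 0.44.0 in the submitters' processing notes, and the methods name an earlier release. The authors deposited estimated counts, which are not normalized, and TPM, which kallisto computed from those counts and effective lengths, with each sequence's length. Normalized count tables made with DESeq2 were not used here.

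Estimated counts were rounded. Each pair of strains had its own fit of 6 libraries in edgeR 4.0.16 (R 4.3.3). Low sequences were dropped by filterByExpr (minimum count 10, minimum total 15), libraries were scaled by TMM, and quasi-likelihood p-values were adjusted by Benjamini-Hochberg over all sequences tested. The study used DESeq2 with the same cutoffs, an adjusted p under 0.05 and an absolute log2 difference of at least 1. The 95% intervals of log2 differences come from the same fits. Ratios of summed counts have exact binomial intervals. The fits were tested on simulated data. No replicate pair agreed within sampling noise.

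Alternatives were RLE factors, library totals only, DESeq2 1.42.0 without and with effective lengths, 1 fit over 9 libraries, no filter, means of 50 counts or more, a replicate block, limma 3.58.1 on log2(TPM + 1) and log2(TPM + 0.1), other cutoffs and windows, and each library left out.

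Named members are those within 5 numbers of *CRA1*, those named in the study's gene table (9, chosen there for change in these libraries), those called in any comparison, the 5 highest in mean TPM, and the largest uncalled difference per comparison. Gene names come from that table. Of the 5040 genes in the reference table, of strain GS115, 0 share an identifier with it. Members and lists were chosen with earlier results of these data known.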

Additional observations from a re-analysis of the deposited data

Results flagged for a closer look

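The tables also hold the sequence named Kanamycin, which has no chromosome 1 number and so is not a member. It entered the tests above only as 1 of all sequences. Its place in the genome of each strain is not given in the sources used here. It had 0 counts in all 3 control libraries and 19, 10 and 16 counts in overexpression replicates 1, 2 and 3, which drew attention because the signal is above the level in control. In the *Δcra1* libraries it had 1751, 1526 and 1679 counts, or 7354 ± 507 CPM against 104 ± 13.0 in the overexpression strain (SD, n = 3), a ratio of 70.9.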

How the results depend on the processing

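The number of members called in overexpression against control was 1. It was 2 with library totals, 3 with no filter, 3 with no minimum fold change, 6 in 1 fit over 9 libraries, and 0 with a mean of at least 50 counts, an adjusted p under 0.01, the count minimum in each strain, or windows of 20 or 10 numbers. Of all sequences tested 7.96% were called in the main fit and 9.32% with library totals. The share was 7.83% with no filter, 13.7% in 1 fit over 9 libraries, 7.56% with a mean of at least 50 counts and 4.06% with the minimum in each strain. With no minimum fold change 198 of 1986 sequences had an edgeR adjusted p under 0.05. The windows of 20 and 10 numbers held 15 and 7 tested members. In *Δcra1* against control the number of members called was 10, and became 4 with a mean of at least 50 counts, 6 in 1 fit over 9 libraries, 3 with the minimum in each strain, 17 with no minimum fold change, and 2 in windows of 20 and of 10 numbers. Of all sequences tested 21.6% were called in the main fit. The share was 13.3% with a mean of at least 50 counts, 14.0% in 1 fit over 9 libraries and 12.1% with the minimum in each strain. With no minimum fold change 936 of 2392 sequences had an edgeR adjusted p under 0.05. The 2 windows held 19 and 9 tested members. In overexpression against *Δcra1* the number of members called was 3, and became 5 with library totals, with no filter or in 1 fit over 9 libraries, 1 with the minimum in each strain, and 0 in both smaller windows. Of all sequences tested 15.5% were called in the main fit and with library totals. The share was 9.98% with no filter, 18.8% in 1 fit over 9 libraries and 13.7% with the minimum in each strain. The 2 windows held 21 and 10 tested members. With 1 library left out the counts of members called ranged from 0 to 8, from 7 to 11 and from 2 to 7 in the 3 comparisons. The shares of all sequences tested then ranged from 1.92% to 25.3%, from 16.0% to 23.7% and from 8.33% to 22.5%. The minimum in each strain was chosen after seeing the data.

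The members' median in overexpression against control, 0.11, was 0.60 with no filter, -0.069 with a mean of at least 50 counts, 0.28 in 1 fit over 9 libraries, 0.42 and 0.50 with limma at pseudocounts 1 and 0.1 (0.43 and 0.46 over all sequences), -0.039 with the minimum in each strain, and -0.25 and -0.19 in windows of 20 and 10. With 1 library left out it was 0.0087 to 0.15. In *Δcra1* against control, 0.50, it was 0.65 with library totals, 0.27 and 0.30 with DESeq2 without and with lengths, -0.050 with a mean of at least 50 counts, 0.39 in 1 fit over 9 libraries, 0.74 and 0.79 with limma (0.55 and 0.59 over all), -0.10 with the minimum in each strain, -0.018 and 0.18 in windows of 20 and 10, and 0.20 to 0.48 with 1 library left out. Library totals moved the median of all sequences from 0.0063 to 0.15 in *Δcra1* against control and from 0.078 to -0.05 in overexpression against *Δcra1*. The cause of these changes was not tested, except that smaller windows and stricter filters hold fewer members.

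Directions turned for 1525 in overexpression against control with DESeq2 (-0.10, and -0.11 with lengths), with no filter (-0.11) and without control replicate 2 (-0.14), and in *Δcra1* against control without that library (-0.066). For 1518 they turned without overexpression replicate 1, to -0.43 against control and -0.11 against *Δcra1*. In overexpression against *Δcra1*, 1506 turned with a mean of at least 50 counts (0.038) and without overexpression replicate 1 (0.024), 1520 with limma (-0.81 and -1.86) and without that replicate (-0.32), and 1535 without it (-0.13). With 1 library left out these values ranged from -0.14 to 0.20 and from -0.066 to 0.43 for 1525, from -0.43 to 0.74 and from -0.11 to 0.99 for 1518, from -0.38 to 0.024 for 1506, from -0.32 to 0.83 for 1520 and from -0.13 to 0.79 for 1535. None of these was called.

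Same-numbered libraries of overexpression and control correlated in their deviations at 0.31, 0.26 and 0.088, with every sample closest to its own number. In *Δcra1* and control the values were -0.20, -0.053 and -0.094, and in overexpression and *Δcra1* -0.49, -0.21 and -0.038. The labels name no shared batch, and whether the numbers pair the overexpression and control samples was not settled. The main fits had no replicate block. With the replicate block 5 members were called in overexpression against control, all higher: 1535, *CIN5-1*, 1549, 1557 and 1562. That was 18.5% of the members tested, beside 15.5% of all sequences (307, against 158 without the block). In *Δcra1* against control the block gave 9 of the 33 members tested, beside 503 of all 2392 sequences tested. In overexpression against *Δcra1* it gave 3 of the 41 members tested, beside 373 of all 3071.

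Depth limits the whole window, since 37 of 73 members, and 6 of the 9 nearest, had a mean of under 10 counts.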
